A study of Homo sapiens with 10 samples.

Results

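Transcripts of 41 genes, most of them for factors of RNA polymerase II elongation, were followed between the chromatin pellet and the soluble part of HEK293 nuclei. The genes were listed by name, for the partners of P-TEFb and the pausing, elongation and chromatin-passage factors. Of the 41, 32 had a tested row of their own in the authors' deposited gene table, which holds 241080 loci. A further 8 shared their row with another gene and TCEB3 was matched to no row. HEK293 is a line of human embryonic kidney origin that grows attached. Total nuclear RNA was sequenced in strand-specific libraries from a chromatin pellet extract (CPE, 3 samples) and a soluble nuclear extract (SNE, 3 samples). Another 2 CPE samples with DRB, an inhibitor of the P-TEFb kinase, and 2 mock CPE samples are listed in the labels and were not analysed here. No genetic alteration is given for any group in the labels.

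P-TEFb, the kinase CDK9 with a cyclin T, releases paused RNA polymerase II by phosphorylating the polymerase and its pausing factors. It is held inactive on the 7SK RNA by HEXIM proteins, with MEPCE and LARP7 protecting that RNA. NELF and DSIF hold the polymerase near the promoter, and the super elongation complex, the PAF complex, SPT6, FACT, TFIIS and elongin act on the polymerase or on nucleosomes after release. Most of the listed genes encode proteins that work on chromatin, while the values below are for the RNAs that encode them.

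The gene table gives 1 FPKM value (fragment counts scaled to transcript length and library size) for CPE and 1 for SNE, each made by the authors over the samples of the group. It holds no per-sample values, so no error between replicates can be given, the depth of each library is unknown, and differences were judged by the authors' Cuffdiff q. The labels do not say whether the samples of a group came from separate cultures, so that q may measure technical spread alone. FPKM measures a share of each fraction's RNA. A lower value in CPE therefore cannot be told apart from more RNA of other kinds in CPE. The values give neither the number of nuclei nor the amount of RNA per nucleus. The authors' scaling also sets the zero of the ratios. Among tested loci that carry 1 symbol, 10065 had an FPKM no lower than 1 in CPE and in SNE. Their log2 ratios (CPE over SNE) had a median of -1.35 and quartiles at -1.91 and -0.61. Ratios relative to this shift are called centred below and carry no test. Of 5 HEK293 markers, CDH2 had an FPKM of 12.6 in CPE and 40.0 in SNE in the authors' deposited table. PAX2, NEFL, NEFM and INA were all below 1 in both groups. Of 9 markers of fibroblasts, blood cells and hepatocytes only COL1A1 reached 1, at 0.958 in CPE and 1.45 in SNE. Their summed FPKM was 1.72 in CPE and 2.64 in SNE, with COL1A2 and HBB listed at 0 in both. Of these 9, 2 were called: ALB had 0.373 in CPE and was listed at 0 in SNE (q = 0.000706), and LUM had 0.214 in CPE and 0.974 in SNE (q = 0.00944), in the authors' deposited table. The chromatin RNAs NEAT1, MALAT1, FTX and KCNQ1OT1 summed to 190.6 in CPE and 53.0 in SNE. MALAT1 made up most of both sums, at 114.5 in CPE and 41.9 in SNE. Of 4 mRNAs listed as released, GAPDH and RPLP0 were lower in CPE (each q = 0.000706 in the authors' deposited table). ACTB, in a row with AC006483.1, had 802.8 in CPE and 1342.9 in SNE without a call (q = 0.503 in the authors' deposited table). EEF1A1 could not be tested because its region exceeded Cuffdiff's data limit.

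Most of the 32 elongation gene transcripts were lower in the chromatin pellet, and none was called higher there. By a Cuffdiff q of at most 0.05 in the authors' deposited table, 21 of 32 were lower in CPE (65.6%), 0 were higher and 11 were not called. Of the 11, 7 had an unadjusted p under 0.05, all with ratios below 0. Over all 16699 tested loci with 1 symbol, 39.1% were lower and 1.71% higher in CPE, and among those reaching an FPKM of 1 in CPE or SNE 48.1% were lower. Among the 10065 loci that reach it in both, as all 32 genes did, 53.1% were lower. Of these loci 4614 were not called, and 1258 of the uncalled had an unadjusted p under 0.05. FPKM of the 32 ranged between 1.88 and 104.0 in CPE with a median of 7.99. In SNE it ranged between 4.66 and 617.2 with a median of 26.0. Medians of the 10065 loci were 7.67 in CPE and 17.5 in SNE, so the sets were not matched for level. The ratio was below 0 for 31 of 32, against 8821 of the 10065 loci, and the median log2 ratio of the 32 was -1.46. Of the 32, 24 lay between those quartiles, 7 below the lower one and 1, XRN1, above the upper one. After centring, the median was -0.11, and 21 of the 32 lay below 0 and 11 above. Among the 21 called transcripts only EAF2 and RPRD1A turned to the chromatin side on centring.

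**Figure D1:**
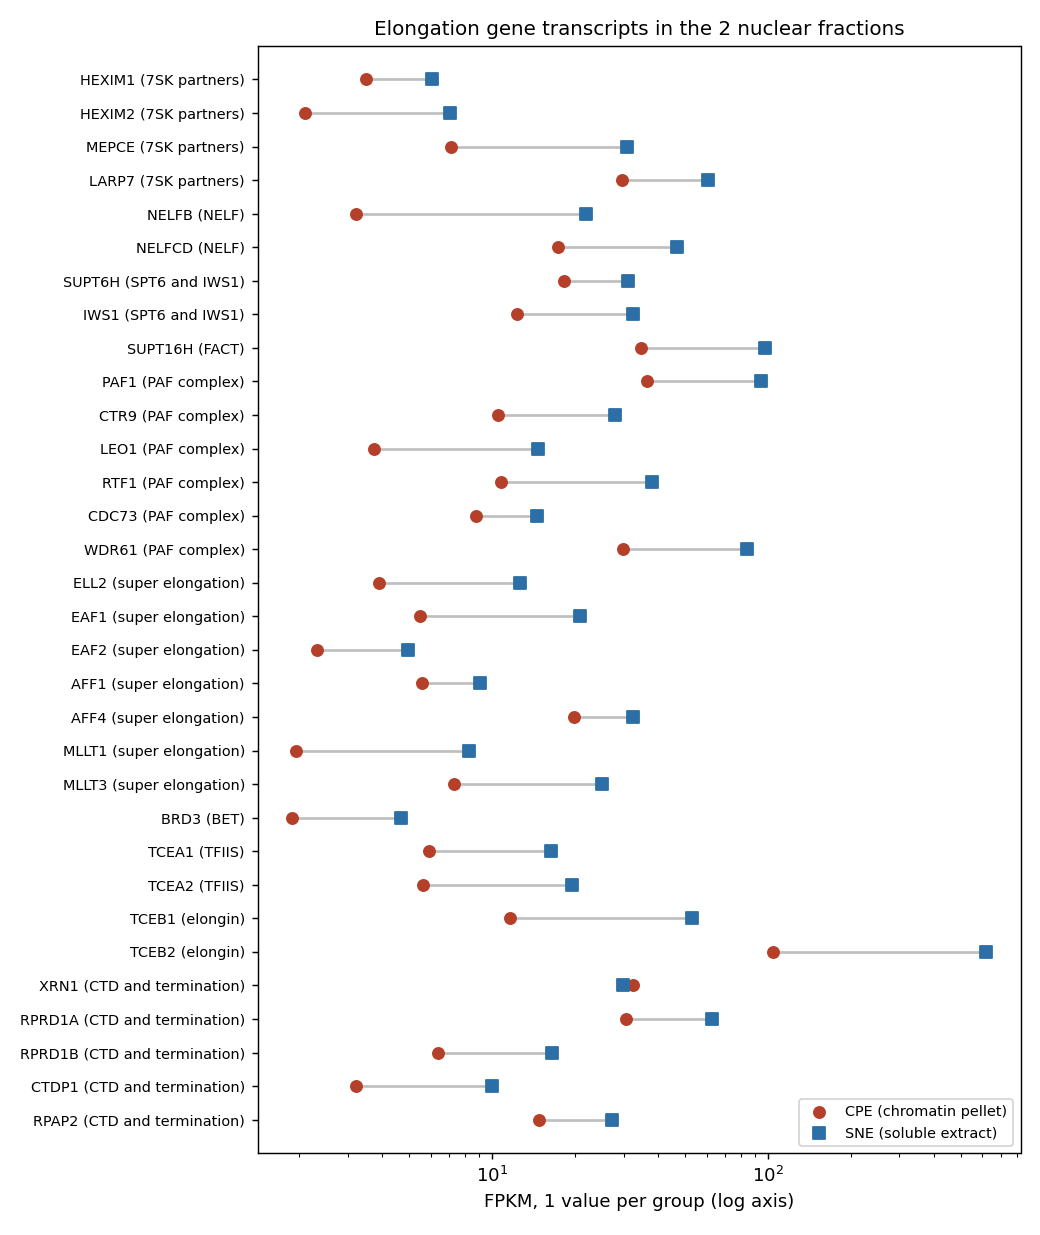
FPKM (log axis) of the 32 transcripts with a row of their own, grouped by role, with 1 value for CPE (circles) and 1 for SNE (squares) and a grey line joining them. The CPE point lies left of the SNE point for 31 of 32 transcripts, and XRN1 is the exception.

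All 4 7SK partners had ratios below 0, as had 8821 of the 10065 loci, and MEPCE was called. HEXIM1, HEXIM2 and LARP7 were not, although each had an unadjusted p under 0.05 (0.007, 0.018 and 0.014 in the authors' deposited table). MEPCE, which caps the 7SK RNA, had an FPKM of 7.12 in CPE and 30.9 in SNE in the authors' deposited table, 4.35-fold lower in CPE (q = 0.000706, the smallest q in the table). LARP7, which binds the end of 7SK, was the most abundant of the 4, at 29.6 in CPE and 60.4 in SNE, with a log2 ratio of -1.03 and no call (q = 0.0927 in the authors' deposited table). HEXIM1 and HEXIM2, the paralogous inhibitors of P-TEFb, lie beside each other in a single region of hg19 chromosome 17 (43221961 to 43248951). HEXIM1, a gene of 1 exon in GENCODE 29, had 3.48 in CPE and 6.06 in SNE, a log2 ratio of -0.80 just outside the threshold (q = 0.0529 in the authors' deposited table). HEXIM2, with 4 exons, had 2.10 in CPE and 7.04 in SNE and a larger log2 ratio of -1.74, also without a call (q = 0.112 in the authors' deposited table). The ratios of the 2 paralogs thus lay on either side of the median of all loci, at 0.55 for HEXIM1 and -0.39 for HEXIM2 after centring. Whether they differ from each other cannot be tested without per-sample values.

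Both subunits of the negative elongation factor with a row of their own were lower in CPE, as were 53.1% of the 10065 loci. The lowest ratio of all 32 was that of NELFB. NELFB had an FPKM of 3.20 in CPE and 21.9 in SNE, 6.85-fold lower in CPE (log2 ratio -2.78, q = 0.000706 in the authors' deposited table; hg19 chromosome 9, 140149625 to 140167998). NELFCD had 17.3 in CPE and 46.7 in SNE, 2.71-fold lower in CPE at the same q, and its ratio was within 0.09 of the median of all loci. The other two subunits shared a row with a microRNA each. The row of NELFE and MIR1236 had 20.5 in CPE and 88.3 in SNE and was lower in CPE (q = 0.0204 in the authors' deposited table). The row of NELFA and MIR943 had 4.98 in CPE and 14.8 in SNE without a call (q = 0.0834 in the authors' deposited table). DSIF, the pausing factor that later aids elongation, was seen only in shared rows, both lower in CPE. SUPT4H1 with RNF43 had 44.4 in CPE and 179.7 in SNE (log2 ratio -2.02, q = 0.00134), and SUPT5H with AC011500.1 had 75.8 in CPE and 176.9 in SNE (-1.22, q = 0.00414), in the authors' deposited table. The SUPT5H row turned to the chromatin side on centring, at 0.13.

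To show the start sites at the 2 ends of the range, and that of the intronless HEXIM1, the 250 bases before the annotated start are given, from RefSeq on GRCh38.p14 and matched by symbol. NELFB had the lowest ratio and XRN1 the highest. Capitals mark matches, on either strand, to any of 5 motifs. The TATA motif was searched as TATAAA and the motif of NF-Y factors as CCAAT. The binding motif of SP factors was searched as GGGCGG, called GC box below. The core of ETS family sites was searched as CCGGAAG, and that of the factor NRF1 as GCATGCGC.
HEXIM1, chr17:45148225-45148474, plus strand: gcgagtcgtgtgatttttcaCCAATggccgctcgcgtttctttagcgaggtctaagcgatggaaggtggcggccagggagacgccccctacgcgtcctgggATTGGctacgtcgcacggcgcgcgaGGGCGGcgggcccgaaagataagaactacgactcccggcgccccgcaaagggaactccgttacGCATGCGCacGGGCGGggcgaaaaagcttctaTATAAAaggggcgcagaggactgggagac
NELFB, chr9:137255077-137255326, plus strand: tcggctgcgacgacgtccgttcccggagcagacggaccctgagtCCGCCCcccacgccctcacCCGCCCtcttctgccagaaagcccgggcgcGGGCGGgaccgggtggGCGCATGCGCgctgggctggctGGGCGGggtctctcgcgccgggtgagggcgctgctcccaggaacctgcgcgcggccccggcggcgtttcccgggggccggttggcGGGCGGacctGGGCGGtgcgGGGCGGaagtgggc
XRN1, chr3:142448038-142448287, minus strand: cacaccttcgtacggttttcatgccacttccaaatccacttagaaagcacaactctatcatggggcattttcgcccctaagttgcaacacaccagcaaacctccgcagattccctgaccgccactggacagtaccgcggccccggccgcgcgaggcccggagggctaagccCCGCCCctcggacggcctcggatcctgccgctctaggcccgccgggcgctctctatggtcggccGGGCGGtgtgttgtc

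The HEXIM1 window holds 1 TATAAA, 2 matches to CCAAT, 2 GC boxes and 1 NRF1 core. The NELFB window holds 7 GC boxes and 2 overlapping NRF1 matches on opposite strands, and the XRN1 window 2 GC boxes. A window was found for 28 of the 32 genes (37 windows, some genes having several), and CDC73, ELL2, TCEA1 and TCEB1 had none in the table used. HEXIM1 was the only one of the 28 with TATAAA, in 2.70% of member windows against 10.7% of 35116 windows of all genes. GGGCGG stood in 67.6% of member windows and 42.6% of all, CCAAT in 37.8% and 32.0%, CCGGAAG in 16.2% and 8.52%, and GCATGCGC in 10.8% and 2.63%. The member windows were also richer in G and C, with a median of 66.0% against 58.0%. These matches describe letters and not bound sites, and the fraction data do not bear on binding.

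Among the factors that move with the polymerase or open nucleosomes, most were lower in CPE, as were 53.1% of the 10065 loci. SUPT6H was not called. SUPT6H, the histone chaperone SPT6, had an FPKM of 18.3 in CPE and 31.2 in SNE (log2 ratio -0.77, q = 0.0656 in the authors' deposited table). Its partner IWS1 had 12.4 in CPE and 32.4 in SNE, 2.62-fold lower in CPE (q = 0.000706 in the authors' deposited table). Both had nearly equal levels in SNE, and their values differed more in CPE. The FACT subunit SUPT16H had 34.8 in CPE and 97.8 in SNE, 2.81-fold lower in CPE (q = 0.000706 in the authors' deposited table). SSRP1, the other FACT subunit, shared its row with snoU13 and had 34.0 in CPE and 144.5 in SNE (log2 ratio -2.09, q = 0.000706 in the authors' deposited table).

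Of the 6 PAF complex genes, 5 were lower in CPE, against 53.1% of the 10065 loci, and CDC73 was not called. PAF1, which names the complex, had an FPKM of 36.5 in CPE and 94.3 in SNE, 2.59-fold lower in CPE (q = 0.0352 in the authors' deposited table). CTR9, its scaffold, had 10.5 in CPE and 28.0 in SNE (2.67-fold, q = 0.000706 in the authors' deposited table). LEO1 had the lowest ratio of the 6, at 3.75 in CPE and 14.7 in SNE (log2 ratio -1.98, q = 0.00307 in the authors' deposited table). RTF1, which promotes histone H2B ubiquitination, had 10.8 in CPE and 37.9 in SNE (3.51-fold lower in CPE, q = 0.00194 in the authors' deposited table). WDR61, also a subunit of the cytoplasmic SKI complex, had 29.7 in CPE and 84.0 in SNE (2.83-fold, q = 0.000706 in the authors' deposited table). CDC73, the tumour suppressor parafibromin, had 8.72 in CPE and 14.6 in SNE, a log2 ratio of -0.74 without a call (q = 0.234 in the authors' deposited table). CDC73 and LEO1 had almost the same FPKM in SNE and differed in CPE, and the difference was not tested. The median log2 ratio of the 6 was -1.46, and -0.11 after centring, with CDC73 alone on the chromatin side.

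Of the 7 super elongation genes with a row of their own, 4 were lower in CPE (57.1%, against 53.1% of the 10065 loci). AFF1, AFF4 and ELL2 were not called. AFF4, the scaffold that holds P-TEFb, had an FPKM of 19.8 in CPE and 32.3 in SNE (log2 ratio -0.71, q = 0.390 in the authors' deposited table). Its paralog AFF1 had 5.56 in CPE and 9.05 in SNE, a nearly equal ratio of -0.70 (q = 0.477 in the authors' deposited table). Both YEATS-domain readers were called, and their difference from the scaffold genes was not tested. MLLT1 (ENL) had 1.94 in CPE and 8.26 in SNE, 4.26-fold lower in CPE (q = 0.000706), and MLLT3 (AF9) had 7.27 in CPE and 25.0 in SNE, 3.43-fold lower (q = 0.0393), in the authors' deposited table. EAF1, which binds ELL proteins, had 5.49 in CPE and 20.8 in SNE (3.80-fold lower in CPE, q = 0.000706), and EAF2 had 2.32 in CPE and 4.95 in SNE (2.14-fold, q = 0.00665), in the authors' deposited table. EAF2 turned to the chromatin side on centring, at 0.25. ELL2, an elongation factor of the complex, had 3.90 in CPE and 12.6 in SNE, a log2 ratio of -1.69 without a call (q = 0.233 in the authors' deposited table). ELL2 and EAF2 show that size and call are separate in these data, since the smaller difference of EAF2 was the one called. ELL with AC010335.1 had 0.697 in CPE and 2.57 in SNE (q = 0.000706), and ELL3 with RP11-296A16.1 and SERINC4 had 6.25 in CPE and 16.0 in SNE (q = 0.222), in the authors' deposited table.

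**Figure D2:**
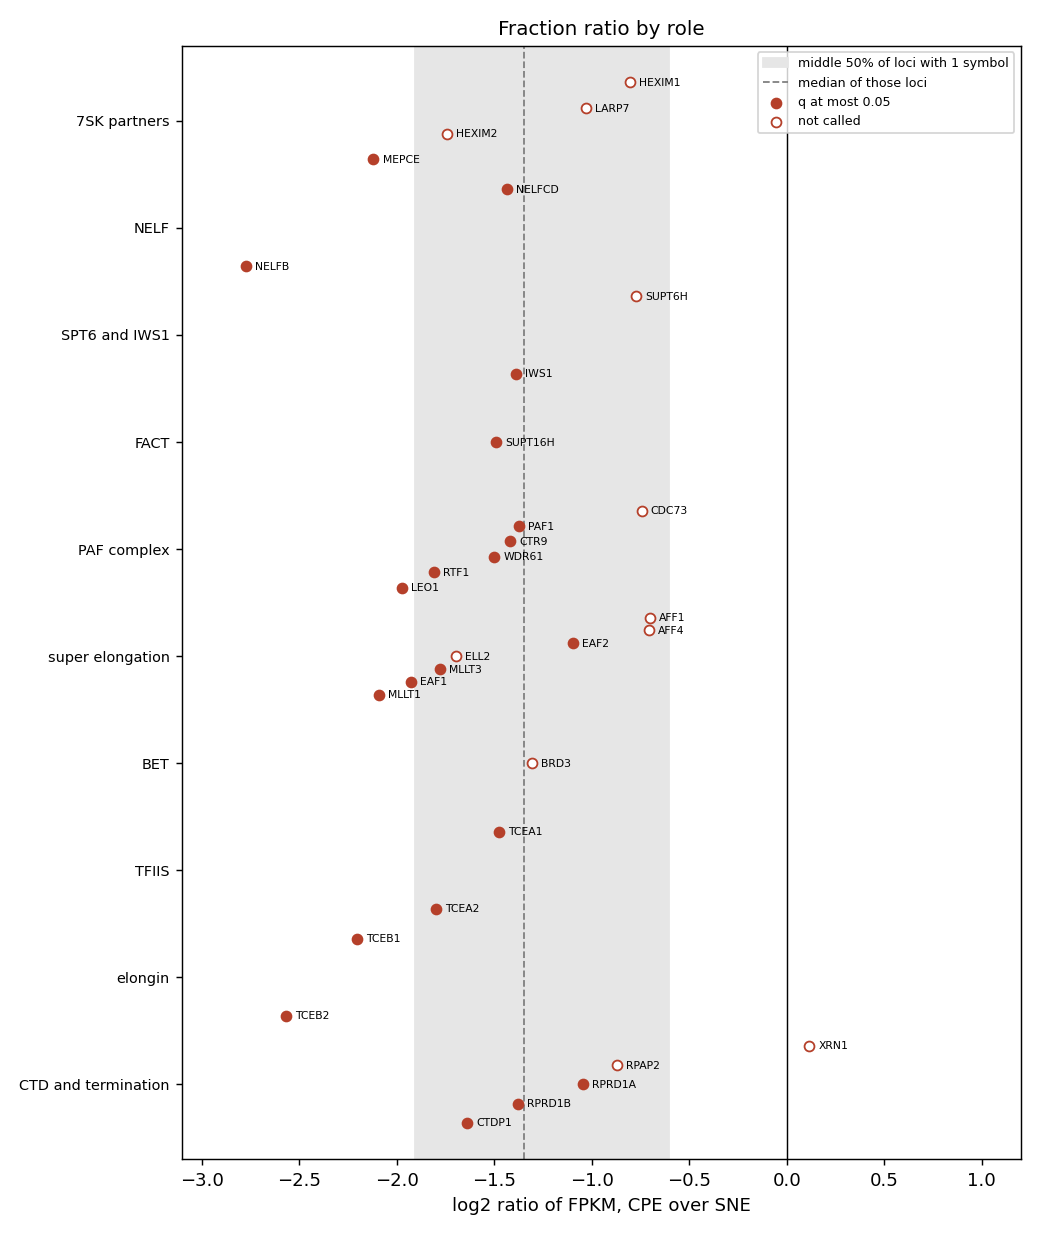
Log2 ratio of FPKM (CPE over SNE) for each of the 32 transcripts by role, filled where q is at most 0.05 and open where not called, with the median (-1.35, dashed) and the range between the quartiles (grey) of 10065 loci with 1 symbol. NELFB and TCEB2 lie farthest to the soluble side, and XRN1 is the only transcript right of 0.

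The BET bromodomain genes BRD2 and BRD3 read acetylated histones. BRD2, in a row with its intronic transcript BRD2-IT1, had an FPKM of 140.5 in CPE and 263.9 in SNE (log2 ratio -0.91, q = 0.000706 in the authors' deposited table), and 0.44 after centring. BRD3 was far less abundant, at 1.88 in CPE and 4.66 in SNE, and was not called (log2 ratio -1.30, q = 0.150 in the authors' deposited table).

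TFIIS and elongin genes were all lower in CPE where tested, as were 53.1% of the 10065 loci. TCEA1 and TCEA2 encode TFIIS, which restarts backtracked polymerase. TCEA1 had 5.90 in CPE and 16.4 in SNE (2.78-fold lower in CPE), and TCEA2 had 5.62 in CPE and 19.6 in SNE (3.48-fold), each at q = 0.000706 in the authors' deposited table. TCEB2 (elongin B) had the highest level of the 32 in both fractions, at 104.0 in CPE and 617.2 in SNE, 5.93-fold lower in CPE (q = 0.000706 in the authors' deposited table). TCEB1 (elongin C) had 11.6 in CPE and 53.3 in SNE, 4.60-fold lower in CPE (q = 0.000706 in the authors' deposited table). These proteins also serve as adaptors of cullin ubiquitin ligases. RefSeq names 33 pseudogenes after TCEB1 or its current symbol ELOC 4 each after TCEB2, TCEA1, LARP7 and ELL2, and 1 each after RPAP2 and SUPT16H, so reads may be divided among copies and these values are less certain.

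Of 5 genes grouped as tail factors and exonucleases, 3 were lower in CPE (60%, against 53.1% of the 10065 loci). RPRD1A and RPRD1B bind the phosphorylated tail. RPRD1A had 30.5 in CPE and 62.9 in SNE (2.06-fold lower in CPE, q = 0.0112), and RPRD1B had 6.35 in CPE and 16.5 in SNE (2.60-fold, q = 0.0285), in the authors' deposited table. RPRD1A turned to the chromatin side on centring, at 0.30. CTDP1, the tail phosphatase FCP1, had 3.20 in CPE and 9.98 in SNE (3.12-fold lower in CPE, q = 0.00414 in the authors' deposited table). RPAP2, a phosphatase of the tail and import factor of the polymerase, had 14.8 in CPE and 27.1 in SNE without a call (log2 ratio -0.87, q = 0.292 in the authors' deposited table). XRN1, the cytoplasmic 5′ to 3′ exonuclease, had 32.4 in CPE and 29.9 in SNE, the only ratio above 0 (log2 ratio 0.12, q = 0.812 in the authors' deposited table; hg19 chromosome 3, 142025327 to 142166904). In SNE, XRN1 was near the middle of the 32, while in CPE only TCEB2, PAF1 and SUPT16H were higher.

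By role, the median log2 ratio was lowest for elongin (-2.39, 2 genes) and NELF (-2.11, 2 genes). It was -1.69 for 7 super elongation genes, -1.64 for TFIIS (2 genes), -1.46 for the PAF complex and -1.39 for the 4 7SK partners. The tail factors with XRN1 (-1.04, 5 genes) and the pair SUPT6H and IWS1 (-1.08) were nearest to 0. These, with BRD3, were the groups whose median changed sign on centring. Of the 8 members in shared rows 6 were lower in CPE and 2 were not called, against 42.3% lower among 1572 tested loci that name several genes. That share has no FPKM minimum, while the 8 rows had median FPKM of 27.2 in CPE and 116.4 in SNE, so the sets were not matched for level. Groups of 1 to 7 genes allow no test across genes, so no order of the roles is drawn from these medians.

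Isoform values could be read for 5 of the genes. In the authors' deposited isoform table, isoform values summed to the gene value, within a tolerance of 0.001, for all 717 tested symbol loci held in both tables on chromosome 8 and all 764 on chromosome 9, and for 0 of 245 on chromosome 11. The 5 members with matching sums were NELFB, MLLT3, BRD3, TCEA1 and TCEB1, with 52 isoforms of which 17 were tested. BRD3, uncalled as a gene, had 1 called isoform. That isoform had an FPKM of 0.668 in CPE and 3.73 in SNE in the authors' deposited table, 35.5% of the gene in CPE and 80.2% in SNE (log2 ratio -2.48, q = 0.000698). The other 9 BRD3 isoforms summed to 1.22 in CPE and 0.923 in SNE. Leading isoforms below are those highest in SNE, a choice that itself favours a lower share in CPE. In TCEA1, the leading isoform made up 11.2% of the gene in CPE and 59.6% in SNE. The next in SNE made up 8.24% in CPE and 34.1% in SNE. None of the 6 tested TCEA1 isoforms was called by Cuffdiff (q = 0.218 for the leading one in the authors' deposited table). Of the 6, 3 had an unadjusted p under 0.05. Of these 3, 2 had lower and 1 had higher values in CPE, and 4 of the 6 tested ratios were above 0. The higher one made up 25.3% of the gene in CPE and 2.12% in SNE. The 12 TCEA1 isoforms other than the 2 leading ones summed to 4.75 in CPE and 1.02 in SNE. TCEB1's leading isoform made up 48.9% in CPE and 75.2% in SNE, and that of MLLT3 35.8% in CPE and 29.1% in SNE. Both were left untested by Cuffdiff as low data. Another MLLT3 isoform was highest in CPE, at 38.6% of the gene in CPE and 19.8% in SNE, also untested. NELFB had a single isoform, with the gene's own values. Of the 5, 4 were called as genes and 2, NELFB and BRD3, had a called isoform. Counted by isoform, 2 of the 17 tested were lower in CPE (11.8%), near the 15.0% of 6165 tested isoforms of all genes with matching sums. The isoform identifiers are the authors' own and are not paired with annotated transcripts in the table, so which exons differ was not analysed here.

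**Figure D3:**
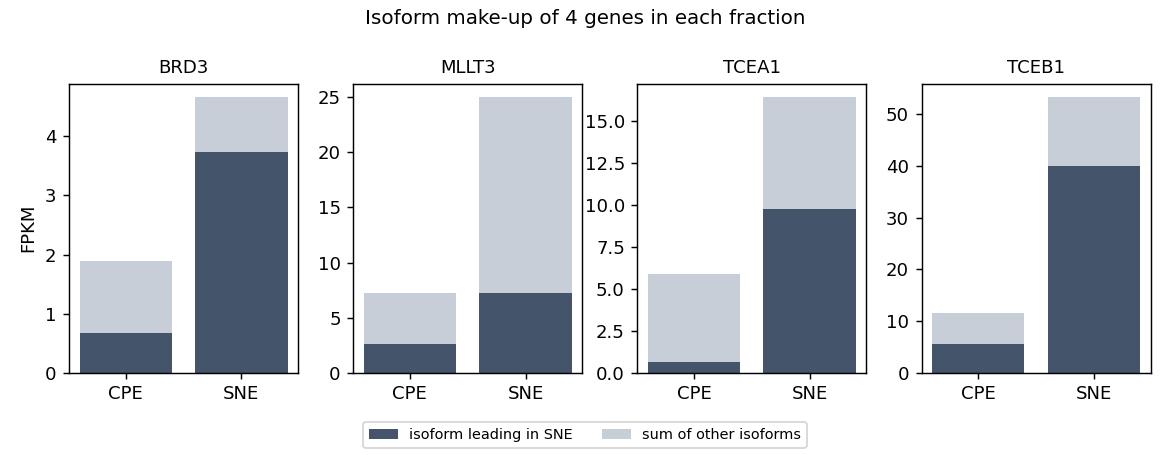
FPKM of 4 genes with several isoforms in CPE (left bar) and SNE (right bar), divided into the isoform that leads in SNE (dark) and the sum of all other isoforms (light). In BRD3 and TCEA1 the dark part is a minor part of the CPE bar and most of the SNE bar. Picking the dark isoform by its SNE level favours a smaller share in CPE. The light part is 1.22 in CPE and 0.923 in SNE for BRD3, and 5.24 in CPE and 6.61 in SNE for TCEA1, where it includes the second isoform.

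Few loci without a symbol in the same regions were called, and nothing particular to these regions is read from them. The 32 genes lie in 31 regions of the table, which also hold 598 tested loci without a symbol. Of these, 34 were higher in CPE (5.69%) and 4 were lower (0.669%) by the authors' q, against 9.45% and 0.630% of all 174660 tested loci without a symbol. CPE exceeded SNE at 587 of the 598 (98.2%), as at 97.3% of all such loci. In 5 regions the member was the only gene with a symbol, and there CPE exceeded SNE at all 28 unnamed loci, 2 of them called. In the region of CTR9 the called locus had an FPKM of 4.75 in CPE and 0.507 in SNE, while CTR9 itself was lower in CPE. In the region of RPRD1A it had 6.28 in CPE and 0.753 in SNE (q = 0.00194 and 0.000706 in the authors' deposited table). The 4 lower loci lay in the regions of LEO1 (173.9 in CPE and 895.0 in SNE), NELFCD (9.02 in CPE and 41.7 in SNE) and MLLT1 (2 loci), in the authors' deposited table. The LEO1 locus was the most abundant of all the called ones. The region of CDC73, which holds rows of 2 other symbols, had 3 unnamed loci higher in CPE. The largest had 12.4 in CPE and 1.01 in SNE (q = 0.000706 in the authors' deposited table), above CDC73 itself in CPE. Such loci numbered 5 in the region of AFF1, 4 in that of MLLT3 and 3 in that of RPAP2, so this was not particular to CDC73. The table does not give the strand or the own position of a locus, so whether these loci lie in introns of the members was not tested.

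Longer genes and transcripts had ratios nearer to 0 among the 32, as over all loci. With log10 gene length from GENCODE 29 the log2 ratio had a Pearson r of 0.38 and a Spearman rho of 0.42 (32 genes), against 0.41 and 0.41 over 8431 of the 10065 loci that had a length (83.8%). With log10 length of the longest coding transcript r was 0.50 and rho 0.45, against 0.40 and 0.41. Without XRN1, the values for the 32 became 0.32 and 0.38 for gene length and 0.44 and 0.40 for transcript length. These are descriptions across genes that share the same libraries. The 11 uncalled genes had a median length of 77.0 kb and a median transcript of 6.10 kb, and the 21 called genes 33.8 kb and 2.96 kb. Not every member followed this order. MLLT3, the longest at 280.9 kb, had a log2 ratio of -1.78, and HEXIM1, the shortest at 3.60 kb, had -0.80.

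**Figure D4:**
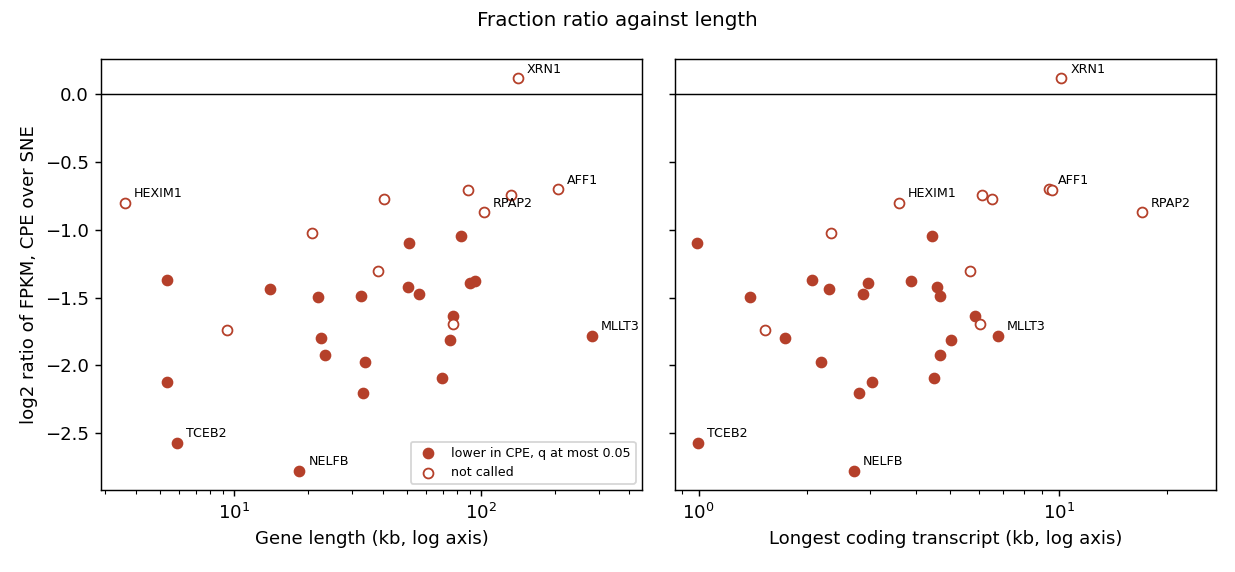
Log2 ratio of FPKM (CPE over SNE) of the 32 transcripts against gene length (left) and length of the longest coding transcript (right), both on log axes, filled where lower in CPE at q of at most 0.05. Of the 11 open points, 9 lie above the median of all loci (-1.35), HEXIM2 and ELL2 lie below it, and HEXIM1 is the shortest gene of all 32.

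Other genes of the pathway, P-TEFb included, were counted in the same way, and the difference from the 32 was not tested. Of 29 listed, 23 had a tested row of their own, all with FPKM of at least 1 in both groups. Of the 23, 9 were lower in CPE (39.1%, against 53.1% of the 10065 loci), 0 were higher and 14 were not called. Ratios were above 0 for 4 of the 23, against 1244 of the 10065 loci, and the median log2 ratio of the 23 was -0.68. Of the 14, 3 had an unadjusted p under 0.05. After centring, 20 of the 23 lay above 0. A further 4 were tested in shared rows, where Cuffdiff called none and 3 had an unadjusted p under 0.05. TCEA3 and SSU72 could not be tested because their region exceeded Cuffdiff's data limit. CDK9, in a row with MIR3960, had an FPKM of 7.42 in CPE and 19.3 in SNE (log2 ratio -1.38, q = 0.0641 in the authors' deposited table). Its cyclin partners CCNT1 and CCNT2 had 23.6 in CPE and 33.3 in SNE (q = 0.136), and 20.2 in CPE and 16.6 in SNE (q = 0.502), in the authors' deposited table. CCNH, a partner of the kinase CDK7, had 51.3 in CPE and 89.9 in SNE, the highest mean among own rows (q = 0.188 in the authors' deposited table). The row that MNAT1, another partner of CDK7, shares with RP11-193F5.1 and SLC38A6 had 54.6 in CPE and 91.6 in SNE (q = 0.225 in the authors' deposited table). The lowest called ratios belonged to GTF2F1, a subunit of TFIIF (12.0 in CPE and 50.2 in SNE, log2 ratio -2.07), and XRN2, the nuclear exonuclease of termination (18.2 in CPE and 61.5 in SNE, -1.76), both at q = 0.000706 in the authors' deposited table. XRN2 and XRN1, nuclear and cytoplasmic exonucleases of the same family, thus had ratios of -1.76 and 0.12, and the difference between them was not tested.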

How the data were processed

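RNA of HEK293 nuclear fractions was sequenced in 10 samples, and the tables used here cover 6 of them. Reads were processed with TopHat2 and Cuffdiff on hg19, per the submitters' processing notes. The sources used here name no tool version, annotation or scaling. Per the file headers, both tables hold FPKM values that the authors computed once per group, with the log2 ratio of CPE over SNE and the authors' Cuffdiff p-value and q-value. No per-sample column was used.

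A gene was taken where its row carried its symbol alone with status OK, and a call was a deposited q of at most 0.05. Deposited log2 ratios of the 32 genes were checked and lay within 0.01 of their FPKM ratios. No test of replicates could be made, so counts and medians stand beside those of all loci. The isoform table was used only where isoform FPKM summed to the gene's. Using it was decided after seeing the data. Lengths came from GENCODE 29, matched by symbol or RefSeq synonym. Computation used Python 3.11.15, pandas 2.3.3 and SciPy 1.17.1.

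The genes, roles and further lists were chosen with earlier results of these data known. Named with full values were all called genes and, in each role, the uncalled gene of highest mean FPKM and of largest ratio. HEXIM1 and AFF1 and genes in shared rows were added after their values were seen. Of the further pathway genes, CDK9, its cyclins and the most abundant and most changed pairs were named, and 1 gene of that rule is not reported here. Alternatives were other thresholds, FPKM minima, pseudocounts, shared rows and centring.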

Additional observations from a re-analysis of the deposited data

How the results depend on the processing

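Of the 32 genes, 17 were lower in CPE at q of at most 0.01. It was 21 with an absolute log2 ratio of at least 1, or FPKM of at least 1 in both or either group. Only 25 genes had FPKM of at least 10 in either group, and 18 of these were lower. With shared rows counted, 27 of 40 were lower, and none was higher in CPE under any of these settings. Of loci with 1 symbol, 53.1% were lower with FPKM of at least 1 in both groups and 48.1% in either. For the other settings the share of all loci was not computed. The median log2 ratio of -1.46 was -1.44 with a pseudocount of 0.1 and -1.36 with 1, and the sign of 0 single genes changed with either. After centring 21 ratios lay below 0, against 31 before. Centred medians were -0.036 for 7SK partners, -0.76 for NELF, -0.14 for SUPT16H, -0.11 for the PAF complex, -0.35 for super elongation, -0.29 for TFIIS and -1.04 for elongin. They reversed to 0.27 for SUPT6H and IWS1, 0.044 for BRD3 and 0.30 for the tail factors with XRN1, because centring subtracts -1.35 from every ratio. Called genes among the 5 with isoform values fell to 2 by isoform, against 4 by gene, an alternative chosen after seeing the data. No paired analysis was possible because the tables hold 1 pooled value per group, and leaving out single replicates was not run for the same reason. Depth is unknown, so what low counts allow could not be stated.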
